A study of Mus musculus with 24 samples.

Results

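The STAT transcription factors Stat2, Stat3, Stat5a, Stat5b and Stat6 were examined with and without interferon beta (IFN beta) in the mouse ovarian cancer line ID8. The 5 genes were taken by symbol from a table of 24614 genes, and all 5 passed the filter on low counts that left 11698 tested genes. Every group carried a double knockout of Trp53, a tumour suppressor gene, and Brca2, a DNA repair gene. The controls were untransfected cells (WT) and cells given an empty CRISPR vector (EV), and 1CF10 and 2CD7 were clones with a CRISPR knockout of Ifnar1, which encodes a chain of the type I interferon receptor. Each line was left untreated or given recombinant mouse IFN beta at 10000 IU/ml for 3 h, which gave 8 groups. Each group has 3 libraries, labelled as technical replicates with 1 shared treatment date, so the p-values cover technical spread alone, and each clone stands only for itself. In bulk RNA of this kind, fewer cells of a type and less RNA per cell cannot be told apart.

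STAT proteins wait in the cytoplasm until a cytokine receptor is engaged. Janus kinases bound to the receptor then phosphorylate them, and they pair, enter the nucleus and bind DNA. STAT2 works with the DNA-binding factor IRF9 in the ISGF3 complex, which binds interferon-stimulated response elements after type I interferon. STAT3 is best known for signals of the interleukin 6 family, STAT5A and STAT5B for those of prolactin, growth hormone and interleukin 2, and STAT6 for those of interleukins 4 and 13. The libraries measure mRNA, so neither STAT protein nor its phosphorylation was observed.

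The question put to the data was whether the mRNAs of these factors change with IFN beta and with the loss of Ifnar1. Stat2 and Stat3 rose in both controls, and neither passed the test in either clone. Stat2 rose 9.11-fold in WT and 8.24-fold in EV, and Stat3 rose 2.73-fold and 2.96-fold. Stat5a, Stat5b and Stat6 passed the test in no line. Without treatment, Stat2 was lower in the clones than in the controls, and Stat3 and Stat5a were lower in EV than in WT.

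The promoters of the members that rose are shown first, from RefSeq on GRCm38.p6, as the strand of the gene from 250 bases before to 50 bases after its start. All 5 members had an entry, with 7 windows in all. Each was searched for the response element bound by ISGF3, which is TTTC and TTTC with any 2 bases between them, and for the GAS element bound by STAT pairs, which is TTC and GAA with any 3 bases between them or, in a longer form, any 4. Both strands were read. Capitals mark the matches.

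Stat2, chr10:128270248-128270547, plus strand: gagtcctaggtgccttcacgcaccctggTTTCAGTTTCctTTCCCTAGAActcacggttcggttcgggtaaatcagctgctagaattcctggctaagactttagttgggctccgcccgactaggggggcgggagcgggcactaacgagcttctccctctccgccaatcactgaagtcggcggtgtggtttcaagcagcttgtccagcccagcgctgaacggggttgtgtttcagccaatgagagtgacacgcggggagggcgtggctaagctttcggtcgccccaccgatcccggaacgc

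Stat3, chr11:100939491-100939790, minus strand: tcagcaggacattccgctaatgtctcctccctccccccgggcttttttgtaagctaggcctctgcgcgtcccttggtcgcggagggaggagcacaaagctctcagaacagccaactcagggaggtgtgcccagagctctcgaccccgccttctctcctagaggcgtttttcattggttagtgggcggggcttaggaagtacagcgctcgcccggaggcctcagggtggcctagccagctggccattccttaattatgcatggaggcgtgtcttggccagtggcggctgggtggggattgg

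The Stat2 window held TTTCAGTTTC at position -222 from the start, which matches the response element, and TTCCCTAGAA at position -210, which matches the longer GAS form. The matches do not overlap. These positions count from the RefSeq start. The gene position given below for Stat2 is from GENCODE and begins at 128270559, beyond the end of this window. Of 32851 promoter windows of this length in the table, 3.44% held the response element, 8.3% the shorter GAS form and 6.95% the longer one. The Stat3 window held none of these letters, and nor did the windows of Stat5a, Stat5b and Stat6. A match is a description of the sequence, and binding was not measured.

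Levels are given as UMIs, where a unique molecular identifier marks a counted molecule, and as CPM, the UMIs scaled to a common library size. The 24 libraries held 1972192 to 3097331 UMIs. Tags were primed at the poly(A) tail, so CPM is not divided by transcript length, and levels are compared within a gene only. Of markers of other cell types, 5 of 14 for leukocytes and 4 of 8 for endothelium had a row in the table, and 0 of them passed the filter. The leukocyte markers summed to 0.787 to 4.54 CPM per library and the endothelial markers to at most 1.9 CPM. Of 12 mesothelial and ovarian surface epithelial markers 9 were tested. The sum over all 12 was 3110 to 3340 CPM in untreated and 3910 to 4160 CPM in treated libraries of WT. It was 2660 to 2740 and 3020 to 3110 CPM in those of EV. It was 2590 to 2610 and 2480 to 2680 CPM in 1CF10 and 3380 to 3440 and 3260 to 3530 CPM in 2CD7. Of the 9 tested, 2 rose in WT, the keratin genes Krt18 and Krt8, by 0.92 and 0.45 on the log2 scale. In EV 2 rose, Krt18 by 0.58 and Wt1 by 0.30, and 0 were called lower in either control. The part of this sum in the results was not tested.

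Stat2 (ENSMUSG00000040033, GRCm38 chromosome 10, 128270559 to 128292849, plus strand) encodes the STAT that is dedicated to type I and type III interferons. The untreated WT libraries held 22, 38 and 38 Stat2 UMIs (9.84, 19.3 and 13.1 CPM), and the treated WT libraries 306, 380 and 291 (116, 132 and 118.5 CPM). Untreated EV held 31, 30 and 36 UMIs (12.4, 12.2 and 14.6 CPM), and treated EV 263, 315 and 217 (107, 115 and 92.7 CPM). The treated libraries lay far above the untreated ones in both controls, with no overlap. The group means rose from 14.1 ± 4.79 to 122 ± 8.59 CPM in WT and from 13.1 ± 1.36 to 105 ± 11.2 CPM in EV (SD, n = 3). The log2 fold change was 3.19 ± 0.155 (SE) in WT, with edgeR adjusted p = 7.72e-26, and 3.04 ± 0.158 in EV, with edgeR adjusted p = 2.72e-24. The response of EV minus that of WT was -0.14, with a 95% interval of -0.65 to 0.36 and edgeR adjusted p = 0.978, so a difference within that interval was not detectable.

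In clone 1CF10 the untreated libraries held 14, 24 and 18 Stat2 UMIs (6.06, 8.57 and 5.81 CPM) and the treated ones 21, 15 and 28 (7.03, 6.24 and 10.6 CPM). In clone 2CD7 these were 24, 12 and 26 (8.72, 4.72 and 10.3 CPM) and 22, 26 and 28 (9.52, 9.21 and 12.7 CPM). Untreated and treated libraries overlapped in both clones, and every clone library lay below every treated control library. On the log2 scale the change was 0.21 in 1CF10, with a 95% interval of -0.35 to 0.76, and 0.38 in 2CD7, with an interval of -0.14 to 0.91. The edgeR adjusted p was 0.998 and 0.997. With 12 to 28 UMIs per clone library, a rise of the size that the intervals allow could not be seen at this depth.

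Stat3 (ENSMUSG00000004040, GRCm38 chromosome 11, 100885098 to 100939540, minus strand) encodes the factor that carries signals of interleukin 6, leukaemia inhibitory factor and oncostatin M. Untreated WT held 167, 171 and 200 Stat3 UMIs (74.7, 86.7 and 68.8 CPM), and treated WT 590, 548 and 466 (224, 190.5 and 189.7 CPM). Untreated EV held 112, 89 and 110 UMIs (45, 36.1 and 44.7 CPM), and treated EV 303, 322 and 285 (123.7, 117 and 121.8 CPM). The treated and untreated libraries did not overlap in either control, and treated EV lay below treated WT as untreated EV lay below untreated WT. The log2 fold change was 1.45 ± 0.0988 in WT, with edgeR adjusted p = 5.82e-19, and 1.57 ± 0.112 in EV, with edgeR adjusted p = 7.05e-18. The response of EV minus that of WT was 0.12, with a 95% interval of -0.18 to 0.42 and edgeR adjusted p = 0.963.

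The clones stayed in the untreated range of Stat3. Their 12 libraries held 126 to 175 UMIs with a median of 151.5, or 46.1 to 69.4 CPM with a median of 57.8. The group means were 52.4 ± 9.04 CPM untreated and 57.7 ± 5.39 CPM treated in 1CF10, and 58.9 ± 3.83 and 62 ± 7.45 CPM in 2CD7 (SD, n = 3). With IFN beta the log2 change was 0.13 in 1CF10 (95% interval -0.10 to 0.37) and 0.07 in 2CD7 (-0.16 to 0.30), with edgeR adjusted p = 0.998 and 0.997. These intervals lie below those of the controls, which began at 1.25 in WT and 1.34 in EV.

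**Figure D1:**
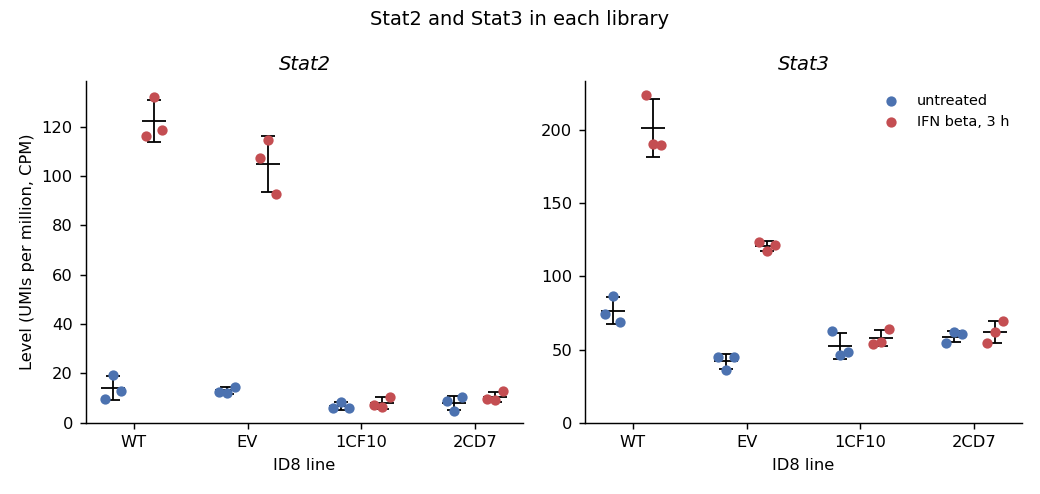
Level of Stat2 (left) and Stat3 (right) in CPM (UMIs scaled to library size, linear axes from 0) in each of 24 libraries of the lines WT, EV, 1CF10 and 2CD7, untreated in blue and with IFN beta in red; bars are the mean ± SD of 3 libraries. Treated WT and EV stand above all other groups for both genes, with Stat2 means of 122 and 105 CPM, while the clones hold 4.72 to 12.7 CPM with and without IFN beta.

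The difference between clones and controls was tested itself. The mean response of the clones minus that of the controls was -2.82 ± 0.236 for Stat2 and -1.41 ± 0.112 for Stat3 on the log2 scale, with edgeR adjusted p = 6.81e-15 and 8.6e-16. These 2 of 5 members stand beside 3.68% of all tested genes that were lower in that comparison. The responses of the clones were not shown to differ from each other: 2CD7 minus 1CF10 was 0.18 for Stat2 (95% interval -0.59 to 0.94) and -0.06 for Stat3 (-0.39 to 0.26), with edgeR adjusted p = 1 for both.

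Stat5a (ENSMUSG00000004043, GRCm38 chromosome 11, 100859351 to 100885169, plus strand) and Stat5b (ENSMUSG00000020919, GRCm38 chromosome 11, 100780731 to 100850724, minus strand) encode closely related factors. Of 900 windows of 101 bases in the last 1000 bases of each member's longest coding transcript, 0 occurred in a transcript of another member. Exact matches on the strand of the gene alone were counted, so the overlap of Stat5a with Stat3 on opposite strands was not covered. Stat5a was counted at low depth, with 4 to 37 UMIs per library and a median of 17. Untreated WT held 22, 22 and 37 Stat5a UMIs (9.84, 11.2 and 12.7 CPM), and treated WT 17, 24 and 27 (6.46, 8.34 and 10.99 CPM). Untreated EV held 10, 5 and 13 UMIs (4.01, 2.03 and 5.29 CPM) and treated EV 14, 10 and 11 (5.72, 3.64 and 4.7 CPM). The treated and untreated libraries overlapped in both controls. The log2 fold change of Stat5a was -0.36 in WT (95% interval -0.95 to 0.23) and 0.34 in EV (-0.51 to 1.19), and it was -0.06 in 1CF10 (-0.77 to 0.64) and 0.38 in 2CD7 (-0.24 to 0.999), with edgeR adjusted p of at least 0.605.

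Stat5b held 13 to 33 UMIs per library, with a median of 23. Untreated EV held 6.825 to 8.948 CPM and untreated WT 9.284 to 10.29 CPM, with no overlap. Treated EV held 5.554 to 7.76 CPM and treated WT 9.119 to 10.59 CPM, again with no overlap. The difference of untreated EV from untreated WT did not pass, with edgeR adjusted p = 0.548. The group means of Stat5b ran from 6.38 ± 1.2 CPM in treated EV to 11.2 ± 3.38 CPM in treated 1CF10 (SD, n = 3), and neighbours in that order overlapped throughout. The log2 fold change was 0.05 in WT (95% interval -0.44 to 0.55), -0.30 in EV (-0.87 to 0.27), 0.39 in 1CF10 (-0.10 to 0.88) and -0.08 in 2CD7 (-0.57 to 0.41), with edgeR adjusted p of at least 0.731. A change of 2-fold in either direction lies outside each of these 4 intervals.

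Stat6 (ENSMUSG00000002147, GRCm38 chromosome 10, 127642986 to 127660957, plus strand) encodes the factor of interleukin 4 and 13 signals. It held 55 to 115 UMIs per library, or 23.3 to 40.8 CPM with a median of 30.3 CPM. The group means ran from 28 ± 2.48 CPM in treated EV to 36.8 ± 4.72 CPM in treated 2CD7 (SD, n = 3), and all neighbours in that order overlapped. In WT the treated libraries held 26.8 to 30.8 CPM and the untreated ones 31.3 to 34.5 CPM, with no overlap, while in EV, 1CF10 and 2CD7 treated and untreated libraries overlapped. Its log2 fold changes were -0.15 in WT (95% interval -0.47 to 0.17), -0.06 in EV (-0.39 to 0.27), 0.07 in 1CF10 (-0.25 to 0.39) and 0.20 in 2CD7 (-0.11 to 0.51), with edgeR adjusted p of at least 0.724. Of the members that did not pass in the controls, Stat6 had the narrowest intervals.

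**Figure D2:**
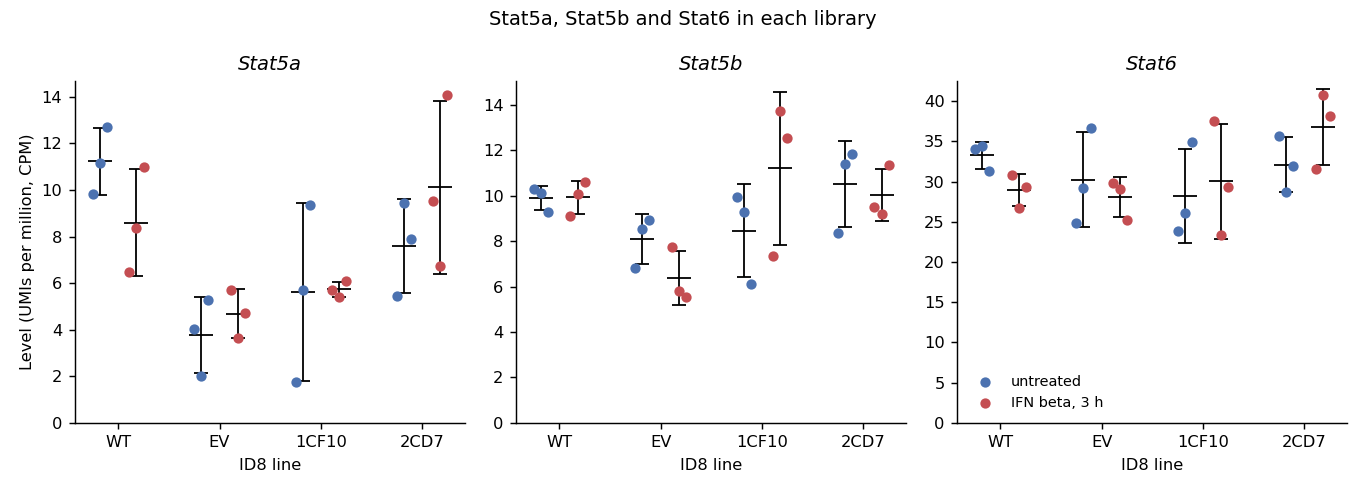
Level of Stat5a, Stat5b and Stat6 in CPM (UMIs scaled to library size, linear axes from 0) in each of 24 libraries, untreated in blue and with IFN beta in red; bars are the mean ± SD of 3 libraries. Treated and untreated libraries overlap in WT and EV for Stat5a and Stat5b and in EV for Stat6, whose treated WT libraries (26.8 to 30.8 CPM) lie below the untreated ones (31.3 to 34.5 CPM), and untreated EV holds the lowest Stat5a mean at 3.78 CPM.

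In counts, 2 of 5 members rose in WT and 2 of 5 in EV, the same genes, while 5.01% and 3.99% of all tested genes rose. None of the 5 passed the edgeR test in 1CF10 or 2CD7, where 0% of all tested genes did. An unadjusted edgeR p below 0.05 was held by 0 of 5 in either clone. Of 11698 tested genes, 485 in 1CF10 and 510 in 2CD7 held one, so few would be looked for among 5 genes. DESeq2 and limma-voom also called 0 members there. The response of EV minus that of WT was called for 0 of 5 members, against 0.0427% of tested genes.

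**Figure D3:**
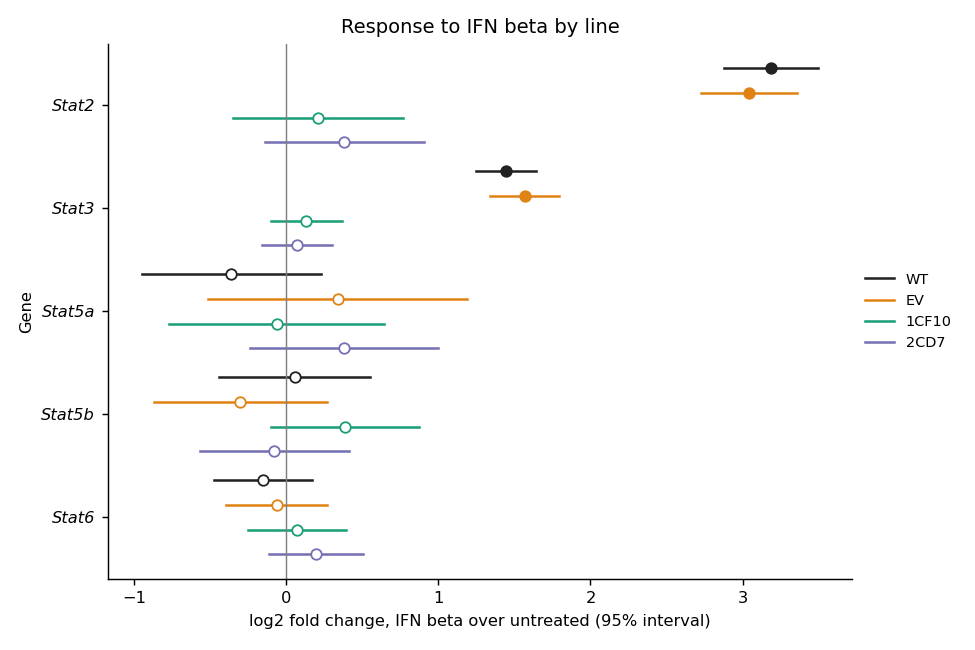
Log2 fold change of each member with IFN beta over untreated, with its 95% interval, in WT, EV, 1CF10 and 2CD7; filled points passed the edgeR test at an adjusted p below 0.05. The filled points are Stat2 in WT (3.19) and EV (3.04) and Stat3 in WT (1.45) and EV (1.57), and the other 16 intervals include 0.

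Without IFN beta the lines already differed in these mRNAs. The untreated clones held less Stat2 than the untreated controls: their mean log2 difference was -0.88 ± 0.178, with edgeR adjusted p = 0.000375, and Stat2 was the member called among 4.8% of tested genes that were lower. All 6 untreated clone libraries held 4.72 to 10.3 CPM of Stat2 and the 6 untreated control libraries 9.84 to 19.3 CPM, so the ranges overlapped at their edges. Against WT, the Stat2 difference of 1CF10 was -1.04 ± 0.254, with edgeR adjusted p = 0.00161. Against EV it was -0.96 ± 0.254, with edgeR adjusted p = 0.00648, or 0.0587 without untreated 1CF10 library 3. For 2CD7 it was -0.80 ± 0.248 against WT and -0.73 ± 0.249 against EV, with edgeR adjusted p = 0.0528 and 0.0537. Over the settings run, the adjusted p for 2CD7 ran from 0.0226 (edgeR, without untreated WT library 1) to 0.377 (edgeR, without untreated WT library 2) against WT, with log2 differences of -1.01 to -0.53. Against EV it ran from 0.0317 (edgeR, without untreated 2CD7 library 3) to 0.364 (edgeR, without untreated 2CD7 library 2), with log2 differences of -0.94 to -0.46. The difference of 2CD7 against WT also passed the threshold without untreated 2CD7 library 3 and with no filter on low counts, and in the other settings it did not. The clones did not differ from each other in untreated Stat2 by the test, at 0.24 (95% interval -0.32 to 0.80) with edgeR adjusted p = 0.671, and nor did EV from WT, at -0.08 (-0.53 to 0.37) with edgeR adjusted p = 0.877.

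Untreated Stat3 followed another order, with WT highest and EV lowest. The means were 76.7 ± 9.14 CPM in WT, 58.9 ± 3.83 in 2CD7, 52.4 ± 9.04 in 1CF10 and 41.9 ± 5.05 in EV (SD, n = 3). Each untreated WT library lay above each other untreated library, and each EV library below each other one. EV differed from WT by -0.86 ± 0.12, with edgeR adjusted p = 1.16e-07, and 1CF10 from WT by -0.58 ± 0.114, with edgeR adjusted p = 8.67e-05. 2CD7 was higher than EV at 0.48 ± 0.122, with edgeR adjusted p = 0.0048, or 0.0522 without untreated EV library 2. 2CD7 against WT stood at the threshold, at -0.38 ± 0.113 with edgeR adjusted p = 0.0444. That call was lost in 10 of 13 alternative settings. Among these were the fits without any 1 of the untreated 2CD7 or WT libraries, with edgeR adjusted p from 0.0541 to 0.3. RLE size factors, limma-voom and DESeq2 lost it too, and DESeq2 gave an adjusted p of 0.0946. The mean of the clones did not differ from that of the controls by the test, at -0.05 (95% interval -0.22 to 0.12) with edgeR adjusted p = 0.819.

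Untreated Stat5a was lower in EV than in WT by -1.58 ± 0.354 on the log2 scale, with edgeR adjusted p = 0.000886. The untreated EV libraries held at most 5.29 CPM and the untreated WT libraries at least 9.84 CPM. 1CF10 was lower than WT too, at -0.96 ± 0.313 with edgeR adjusted p = 0.0228, but its 3 untreated libraries held 4, 16 and 29 Stat5a UMIs. Without library 1, which held 4, the difference was -0.59 with edgeR adjusted p = 0.195, and without library 3, which held 29, it was -1.55. The call was also lost without 1CF10 library 2 and without WT library 3, with edgeR adjusted p = 0.0668 and 0.134, and DESeq2 gave an adjusted p of 0.0632. Stat5b and Stat6 passed no test between untreated lines, with log2 differences from -0.28 to 0.37 and from -0.24 to 0.19.

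Against WT, 2 of 5 members were lower in EV, 3 in 1CF10 and 1 in 2CD7, beside 7.14%, 11% and 2.06% of all tested genes. The 1 in 2CD7 was Stat3, whose call was lost in 10 of 13 alternative settings. These comparisons share the untreated WT libraries. Against EV, 1 member was lower in 1CF10 and 1 was higher in 2CD7, beside 6.76% and 4% of tested genes, and these share the untreated EV libraries. Between the clones 0 of 5 were called, against 13.4% of tested genes. An unadjusted edgeR p below 0.05 was held by 0 of 5, beside 2882 of 11698 tested genes.

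**Figure D4:**
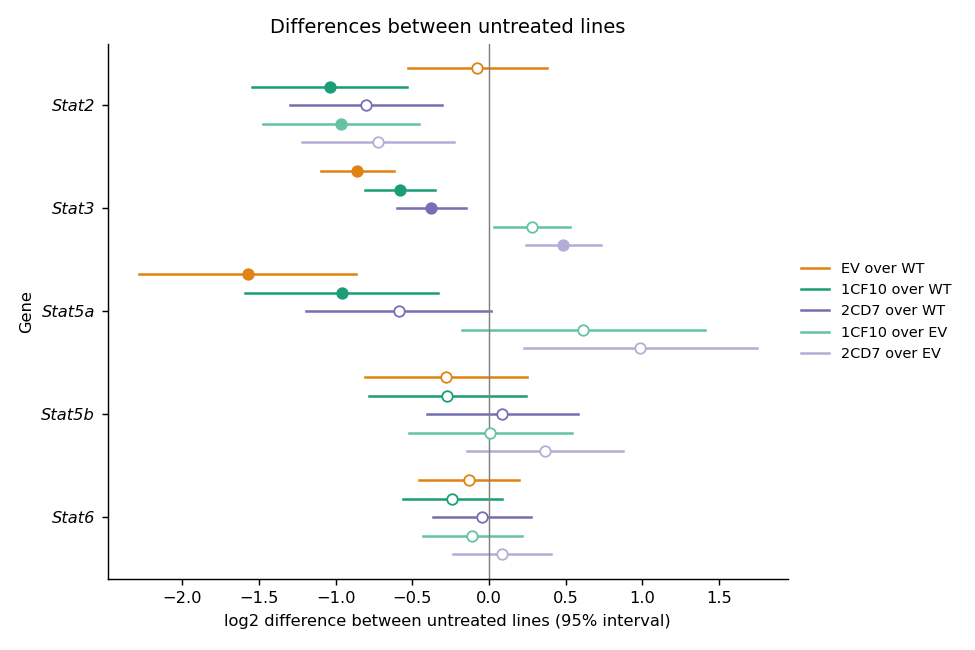
Log2 difference of each member between untreated lines, with its 95% interval, for EV, 1CF10 and 2CD7 over WT and for the clones over EV; filled points passed the edgeR test at an adjusted p below 0.05. Stat2 lies at -1.04 to -0.73 in the 4 comparisons of a clone with a control, and Stat3 and Stat5a have their lowest values in EV over WT, at -0.86 and -1.58.

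The genes around the STATs were taken from lists of receptors, kinases, partners, inhibitors and targets. Beside the shares of all tested genes that rose 1.84% fell in WT and 1.1% in EV. No listed gene passed the edgeR test with IFN beta in either clone, where 0% of all tested genes did. Of 15 tested cytokine receptor chains, 4 rose in WT and 3 in EV, with median log2 fold changes of 0.32 and 0.04 beside -0.02 and -0.01 over all tested genes. Osmr, the oncostatin M receptor that signals to STAT3, rose by 1.31 ± 0.124 in WT and 1.70 ± 0.143 in EV. Lifr, the receptor of leukaemia inhibitory factor, rose by 0.45 ± 0.122 and 0.63 ± 0.138, and Il13ra1, a chain that signals to STAT6, by 1.08 ± 0.136 and 1.04 ± 0.149. Il4ra, its partner chain, rose in WT by 0.82 ± 0.197 and stood at 0.44 ± 0.195 in EV, where it did not pass. The receptor chains of IFN beta did not pass: Ifnar1 stood at 0.44 and -0.05, and Ifnar2 at 0.37 and 0.20.

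Among 6 tested kinases, Jak2, a Janus kinase of many cytokine receptors, was the gene that rose, by 1.01 ± 0.183 in WT and 1.02 ± 0.192 in EV. The medians of this list were -0.05 and -0.16. Jak1 and Tyk2, the kinases bound to the type I interferon receptor, did not pass, with 0.12 ± 0.106 and -0.07 ± 0.11 for Jak1 and -0.31 ± 0.29 and 0.02 ± 0.295 for Tyk2. Of 15 tested partners and import factors, 5 rose and 1 fell in WT and 5 rose in EV, with medians of 0.01 and 0.10. Irf9, the DNA-binding partner of STAT2, rose by 2.34 ± 0.185 and 2.03 ± 0.181. Untreated WT held 18, 44 and 31 Irf9 UMIs and treated WT 191, 188 and 139. The others named were Irf7 (4.09 and 3.25), Irf1 (1.98 and 1.94) and Nmi, which encodes a protein that binds STATs (1.69 and 1.66).

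Irf9 stood low in the clones with Stat2. Untreated 1CF10 held 7, 10 and 9 Irf9 UMIs and untreated 2CD7 7, 4 and 5, against 18 to 44 in the untreated controls. The mean of the untreated clones minus that of the controls was -2.46 ± 0.24 for Irf9, with edgeR adjusted p = 2.91e-11, beside -0.88 for Stat2. The log2 response of Irf9 was 0.12 ± 0.429 in 1CF10 and 1.02 ± 0.469 in 2CD7, and neither passed.

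Of 19 tested inhibitors of STAT signalling, 6 rose and 1 fell in WT and 4 rose in EV, with medians of 0.08 and 0.04. Socs1, which blocks Janus kinases, went from 9, 5 and 6 UMIs to 241, 206 and 223 in WT and from 8, 7 and 9 to 169, 223 and 178 in EV. The 4 named inhibitors were Usp18, a restraint on the type I interferon receptor (6.26 and 5.45), Socs1 (4.93 and 4.56), Cish, a feedback inhibitor of STAT5 (1.51 in WT), and Socs3, a feedback inhibitor of STAT3 signals (0.77 and 0.74), all of which rose in both controls. The protein inhibitors of activated STAT, Pias1 to Pias4, did not pass in either control.

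All 30 listed ISGF3 target genes were tested and rose in both WT and EV, with medians of 4.13 and 3.15. The list was chosen with earlier results of these data known, so this count describes the list and is no independent test. With 1 library left out the median ran from 3.78 to 4.49 in WT and from 2.96 to 3.74 in EV, the last without untreated EV library 3. The median over the list was 0.02 in 1CF10. There 4 targets held at most 3 UMIs over the group, both untreated and treated. With these left out and 1 target at 0 set at that floor of 3 UMIs, the median was 0.04. In 2CD7, where 2 targets held at most 3 UMIs over both groups alike, the median of the list was 0.63. The value in 2CD7 was 0.02 without treated library 2. In that library Stat2 held 26 UMIs (9.21 CPM), the lowest CPM of the treated 2CD7 libraries, and Irf9 held 18 UMIs against 8 and 5 in the other two. The targets Ifit1, Cxcl10 and Usp18 held 58, 52 and 22 UMIs there, against 7 and 13, 11 and 12, and 6 and 2.

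The targets of the other STATs moved in part. These lists too were chosen with earlier results of these data known, so the counts describe the lists and are no independent test. Of 23 tested STAT3 target genes, WT had 9 that rose and 2 that fell, and EV had 9 that rose, with medians of 0.27 and 0.28. Besides Socs1 and Osmr, the named genes were Bcl3, a regulator of NF-kB (0.58 ± 0.174 and 0.98 ± 0.195), and Cebpd, a transcription factor gene, which rose by 1.34 ± 0.196 in WT and stood at 0.69 ± 0.249 in EV without passing. Of 13 tested STAT5 target genes, WT had 5 that rose and 2 that fell, and EV 5 and 1, with medians of 0.38 and 0.44. Cish, Gadd45g (1.21 and 0.65) and Id1 (0.60 and 0.77) rose in both, and Socs2 rose in WT at 0.74 and stood at 0.54 in EV. Of 17 listed STAT6 target genes, 10 had a row and 5 passed the filter, so the values cover a part of that list. Of these 5 tested STAT6 target genes, 4 rose in WT and 3 in EV, with medians of 1.17 and 0.98. They were Socs1, the transglutaminase gene Tgm2 (1.55 and 0.98), the transcription factor gene Klf4 (1.17 and 1.23) and, in WT, Il4ra. Socs1 stands in the lists of STAT3 and STAT6 targets and of inhibitors, and the factor that acts on each gene here was not measured.

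**Figure D5:**
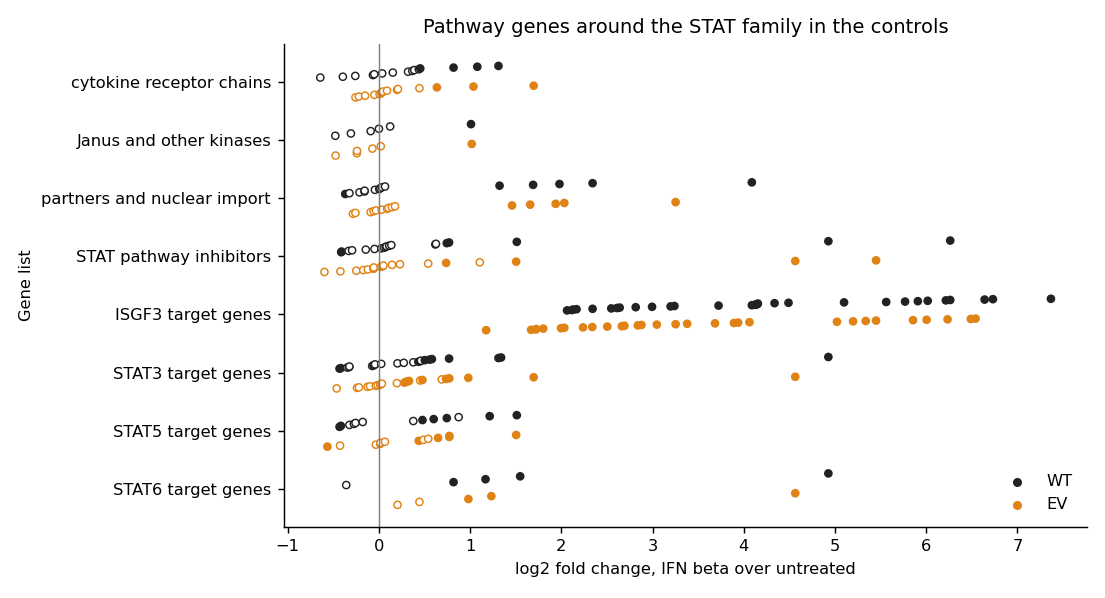
Log2 fold change with IFN beta over untreated of each tested gene of 8 lists around the STAT family, in WT (black) and EV (orange); each point is a gene, and filled points passed the edgeR test at an adjusted p below 0.05. The 30 ISGF3 targets are filled in both controls, with medians of 4.13 and 3.15, while most points of the receptor, kinase, partner and inhibitor lists lie near 0.

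The genes whose pattern over the 8 group means was most like that of a member were found by Pearson's r among tested genes with an average log2 CPM of at least 4. For Stat2 they were the antiviral genes Rsad2 and Ifit1 (r = 0.998 for both) and Usp18 (0.997). For Stat3 they were Vwa5a (0.994), Nod1, which encodes a sensor of bacterial cell walls (0.991), and Amer1 (0.989). These 3 rose in both controls and were lower in untreated EV than in WT, at -0.86, -0.89 and -0.74, as Stat3 was. Stat5a was most like Abhd8 (0.985), Cyb5a (0.977) and Tspan15 (0.971), each lower in untreated EV than in WT, at -0.53, -0.40 and -1.04. The likest genes of Stat5b were Mif4gd (0.967), Mical3 (0.96) and Por (0.948), and those of Stat6 were Gbf1 (0.975), Pdha1 (0.96) and Zhx1 (0.941), none of which passed in WT or EV with IFN beta. Among the members, Stat2 and Stat3 had r = 0.912, and Stat2 with Stat5a, Stat5b and Stat6 had 0.05, -0.37 and -0.18, all as Pearson's r over the same 8 means. These values rest on 8 means that share lines, and they were picked as the highest of 6978 genes or more, so they describe likeness only.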

How the data were processed

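The deposited values are UMI counts per Ensembl gene, made by the authors without normalization, 1 column per library. Per the labels' protocols, reverse transcription from the poly(A) tail added a UMI of 10 bp and an index of 8 bp. Named in the submitters' processing notes, with no role given, are GRCm38, mm10, limma 3.50.0, edgeR 3.36.0, cutadapt 3.0 and R (3.6.2, 4.1.2); aligner, counter and strand setting are not given in the sources used here. Positions are from GENCODE M21 on GRCm38.

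All 24 libraries were fitted on 8 group means with edgeR 4.0.16 in R 4.3.3 (TMM, filterByExpr with a minimum count of 10 and total of 15, robust quasi-likelihood F test), with Benjamini-Hochberg adjustment over 11698 genes and a threshold of 0.05. TMM factors were 0.964 to 1.06. The SE is the log2 fold change over the square root of F, and intervals are 95% from it. The fits were tested on simulated data. Replicates differed by more than counting noise, with a chi-square per gene of 1.4 to 4.74 over 24 pairs. Other settings were RLE factors, DESeq2 1.42.0, limma-voom (limma 3.58.1), no low-count filter, a minimum count of 30, a replicate block, the compared groups alone and each library left out.

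Members and lists were chosen with earlier results of these data known. From each list up to 4 genes called in WT or EV with the largest mean change were named, besides receptor chains, Janus kinases and Irf9. For each member the 3 genes most like it were named, and of tested genes starting within 100 kb those that rose with IFN beta. Predicted genes were skipped, and some genes of the table are not reported here.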

Additional observations from a re-analysis of the deposited data

Results flagged for a closer look

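The responses of Stat2 and Stat3 to IFN beta differed between the Ifnar1 clones and the controls when the difference itself was tested. For Stat2 the mean response of the clones minus that of WT and EV was -2.82 on the log2 scale, with edgeR adjusted p = 6.81e-15. For Stat3 it was -1.41, with edgeR adjusted p = 8.6e-16.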

How the results depend on the processing

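Over 14 comparisons and 5 members, 15 of 70 values were called. Of these, 11 stayed called in the same direction under every setting run, 4 lost the call under some setting, and 0 reversed. The rises of Stat2 and Stat3 in WT and EV were among the 11, with log2 fold changes of 2.98 to 3.45 and 1.38 to 1.62. The number of called members held within 1.5 times in 206 of 217 alternatives, a count that does not follow which gene was called. Against untreated WT, 2CD7 had 1 called member, Stat3, and 0 with RLE size factors, DESeq2 or limma-voom. With a library left out 2CD7 had 0 to 1, and the 1 was Stat2, as the Stat3 call was lost in each such fit. With a library left out, the count ran from 0 to 1 for untreated 1CF10 against EV and from 0 to 2 for untreated 2CD7 against EV. For untreated EV against WT it was 1 with a minimum count of 30, a filter that kept 3 of 5 members and dropped Stat5a and Stat5b. The difference of responses between clones and controls uses all groups, so no fit on fewer groups exists for it.

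Deviations from the group mean of same-numbered libraries correlated at 0.00928 on average (-0.0775 to 0.083, 84 pairs), against -0.00464 for other numbers. Of 24 libraries, 13 correlated best with their own number. Whether the replicate numbers mark a weak pairing was not settled by these values. The fit with the replicate block changed 0 calls of members, and gave Stat2 3.19 in WT and 3.04 in EV. Depth limits Stat5a most, with 4 to 37 UMIs per library.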

Other observations

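Some members lie next to each other or to other genes. Stat3 and Stat5a face each other on GRCm38 chromosome 11 with their ends overlapping by 72 bases, and Stat6 overlaps the end of Nab2, a corepressor gene on the other strand, by 40 bases on chromosome 10. The strand setting of the counting is not given, and without strand the tags of overlapping genes cannot be told apart. Stat5b lies 8.63 kb from Stat5a.

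Many of the tested genes starting within 100 kb of a member passed in neither control, such as Timeless and Cs near Stat2 and Kat2a near Stat5b. The genes named next rose with IFN beta and were picked for that. Dhx58, an antiviral RNA sensor gene near Stat5b, rose by 4.13 ± 0.437 in WT and 2.88 ± 0.438 in EV, and Rab5c, an endosomal GTPase gene there, by 0.34 ± 0.105 and 0.44 ± 0.107. Rbms2, near Stat2, rose in WT by 0.71 ± 0.165 and stood at 0.37 ± 0.168 in EV, where it did not pass.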
